A study of Mus musculus with 30 samples.

Results

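The type I interferon response genes examined here were 35 mouse genes, typical interferon-stimulated genes chosen by symbol with earlier results of these data known. They were read in fracture callus, the repair tissue that bridges a broken bone. All 35 matched exactly 1 of the 55416 gene IDs in the count table, and all 35 passed the filter on low counts at each time point. They were grouped by role into the IFIT family (5 genes), the OAS family (6), the ISG15 system (3), transcription factors (3), RNA and nucleic acid sensors (4), restriction factors and other antiviral effectors (8) and other response genes (6).

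Bulk RNA-seq covered 30 mice with closed, non-stabilized tibial fractures, sampled at 3, 6, 10 and 14 days post fracture (dpf). P-Apex1KO mice carried Prrx1-Cre and the conditional *Apex1* allele in homozygous form (Apex1 C/C), so that *Apex1* was deleted in limb mesenchyme and its descendants and not in blood-derived cells. The WT group comprised littermates of mixed genotype, namely Apex1 C/C or Apex1 C/+ without Cre and Apex1 C/+ with Prrx1-Cre, and the labels did not say which mouse had which. There were 4 WT and 4 P-Apex1KO mice at 3-dpf, 5 and 3 at 6-dpf, 4 and 3 at 10-dpf, and 4 and 3 at 14-dpf, each mouse giving 1 library. The mice were 7 to 12 weeks old at fracture, the Prrx1-Cre line was on a B6 background, and all groups were fractured in the same way. For RNA-seq, the paper describes the 3-dpf samples as tibiae dissected around the break and the later ones as callus, whole at 6-dpf. APEX1, the product of the deleted gene, is an endonuclease of base excision repair that also acts as a redox regulator of transcription factors.

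Type I interferons are secreted when sensors in a cell meet viral RNA, misplaced DNA or similar danger signals. They bind the receptor made of IFNAR1 and IFNAR2, and the receptor activates STAT2, which joins IRF9 in a complex called ISGF3. This complex binds the interferon-stimulated response element (ISRE) in the promoters of many genes and switches them on together, which is why these genes are usually read as a block. In a healing fracture the early callus is rich in macrophages and other myeloid cells, which express many of these genes readily, and STAT2, IRF7 and IRF9 are themselves induced, so the response feeds its own machinery.

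The promoter sequences are shown first because the shared element is what ties most of these genes together. The window from 250 bases before to 50 bases after the canonical start of each gene was read from GRCm39 with GENCODE M39, the same build as the deposited counts. The ISRE core searched was GAAANNGAAA on either strand, where N is any base. It occurred in 19 of the 35 member promoters (54.3%) and in 3.84% of 21614 promoters of protein-coding genes. The core of the gamma-activated site (GAS), TTCNNNGAA, which reads the same on both strands, occurred in 6 of 35 (17.1%) against 8.85% of all promoters. A GAS core overlapped an ISRE core in the *Bst2* and *Zbp1* promoters. Below, the bases around the ISRE core of members that the results turn on are written 5′ to 3′ on the strand that reads GAAANNGAAA, with the core in capitals.
Ifit1, chr19:34618194-34618223, minus strand: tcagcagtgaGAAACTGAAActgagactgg
Ifit3, chr19:34560797-34560826, minus strand: gaggaaagtaGAAACTGAAAcagacttaaa
Ifit3b, chr19:34585193-34585222, minus strand: gaggaaagtaGAAACTGAAAcagacttaaa
Oas1g, chr5:121025669-121025698, minus strand: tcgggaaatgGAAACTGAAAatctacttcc
Oas1a, chr5:121045583-121045612, minus strand: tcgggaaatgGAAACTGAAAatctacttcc
Oas2, chr5:120887970-120887999, plus strand: aggaacctagGAAATCGAAActcaagtgtg
Usp18, chr6:121222772-121222801, minus strand: agatccaaagGAAAGCGAAActcaggcacc
Stat2, chr10:128106135-128106164, minus strand: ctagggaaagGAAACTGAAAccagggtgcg
Rsad2, chr12:26506552-26506581, plus strand: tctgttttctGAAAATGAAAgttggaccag
Trim30a, chr7:104114417-104114446, plus strand: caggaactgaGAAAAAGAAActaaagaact
The 30 bases around the core were identical in *Ifit3* and *Ifit3b* and identical in *Oas1a* and *Oas1g*, pairs of neighbouring paralogs.

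*Isg15* and *Zbp1* are shown with the whole 250 bases before the start, in the direction of transcription and with every ISRE core in capitals, because their cores lie in overlapping runs close to the start. *Isg15* had 3 cores overlapping in 1 run, and *Zbp1* had 4 cores in 2 runs, read there on the opposite strand as TTTCNNTTTC.
Isg15, chr4:156285304-156285553, minus strand: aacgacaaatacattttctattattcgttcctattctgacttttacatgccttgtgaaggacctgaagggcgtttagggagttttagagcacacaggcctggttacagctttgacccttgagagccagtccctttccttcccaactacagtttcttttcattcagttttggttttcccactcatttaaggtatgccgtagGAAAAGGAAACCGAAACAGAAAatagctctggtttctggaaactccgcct
Zbp1, chr2:173060725-173060974, minus strand: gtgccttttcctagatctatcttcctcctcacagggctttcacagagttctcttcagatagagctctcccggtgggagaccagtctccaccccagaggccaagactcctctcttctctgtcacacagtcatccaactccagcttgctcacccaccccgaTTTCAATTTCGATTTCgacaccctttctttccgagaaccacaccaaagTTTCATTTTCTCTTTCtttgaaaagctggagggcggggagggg
No ISRE core of these letters was found in the windows of the other 16 members, *Irf7*, *Mx1*, *Ifit2* and *Isg20* among them. The match is a description of the letters in these windows and not a site of binding.

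**Figure D1:**
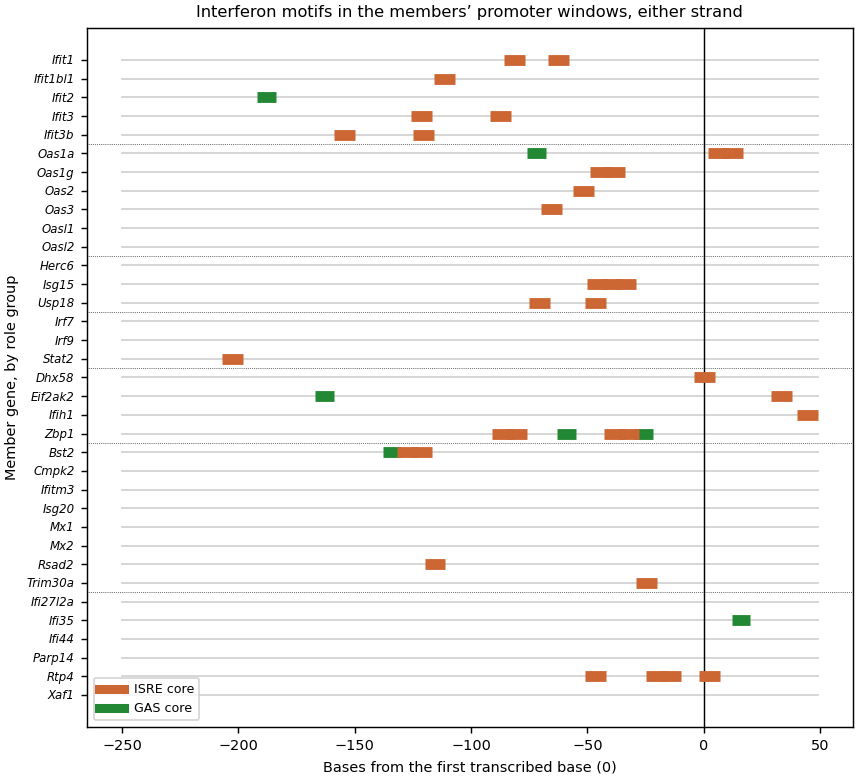
Position of the ISRE core (orange) and the GAS core (green), on either strand, in the promoter window of each of the 35 members; the x axis gives bases from the first transcribed base, set at 0. The ISRE cores of the IFIT family lie between positions -159 and -58, the *Isg15* run between -50 and -29, and 16 members have no ISRE core.

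The libraries held between 18334389 and 43111491 counts on genes. *Apex1* was read first, as a check of the labels. At 6-, 10- and 14-dpf each P-Apex1KO callus had a lower *Apex1* level than each WT callus of the same day, for example 15.1, 15.2 and 15.8 CPM (counts scaled to library size) against 20.7 to 28.9 at 6-dpf, and the difference passed at 6- and 10-dpf (log2 -0.67 and -0.65, adjusted p = 0.0071 and 0.0278) but not at 14-dpf (-0.29, adjusted p = 0.367). At 3-dpf it did not pass (-0.15, adjusted p = 0.927). The 3-dpf libraries labelled P-Apex1KO had 18.4, 29.0, 27.6 and 34.5 CPM (replicates 1 to 4) and the WT libraries 26.4 to 33.1, so replicate 1 was the one below the WT range and replicate 4 was above it. Replicates 2 and 3 lay inside the WT range. Replicate 4 is therefore called a library labelled P-Apex1KO throughout. The 3-dpf counts of members called or not overlapping are given with and without it, and most other 3-dpf results include it. Replicate 4 also had the lowest level of the 35 members among the 3-dpf libraries so labelled (mean log2 CPM 4.28, the others 5.12 to 5.83). Larger counts and differences without replicate 4 therefore follow in part from that choice. Sex was in each model. At 14-dpf all 3 P-Apex1KO mice and 1 of 4 WT mice were female, so that the sex-adjusted difference there rests on that WT female.

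By median fold change, the 35 genes lay higher in callus labelled P-Apex1KO than in WT callus at each of the 4 time points. Their median log2 fold change was 1.04 at 3-dpf, 0.62 at 6-dpf, 0.61 at 10-dpf and 0.74 at 14-dpf, against a median over all genes between -0.003 and 0.043. All 35 had a fold change above 0 at 3-, 6- and 10-dpf, and 33 of 35 at 14-dpf, where the restriction factors *Bst2* and *Ifitm3* had log2 fold changes of -0.06 and -0.09 (above 0 when scaled by library size alone). The number that passed the test over all genes (adjusted p below 0.05) was 0 at 3-dpf, 17 at 6-dpf, 10 at 10-dpf and 10 at 14-dpf, and none passed as lower. Of all genes tested, 0.0%, 5.31%, 3.01% and 4.28% passed as higher on the same days. The members were chosen with earlier results of these data known, so this contrast is a description and not an independent test. In whole callus, a larger share of cells that express these genes and more RNA per cell cannot be told apart.

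**Figure D2:**
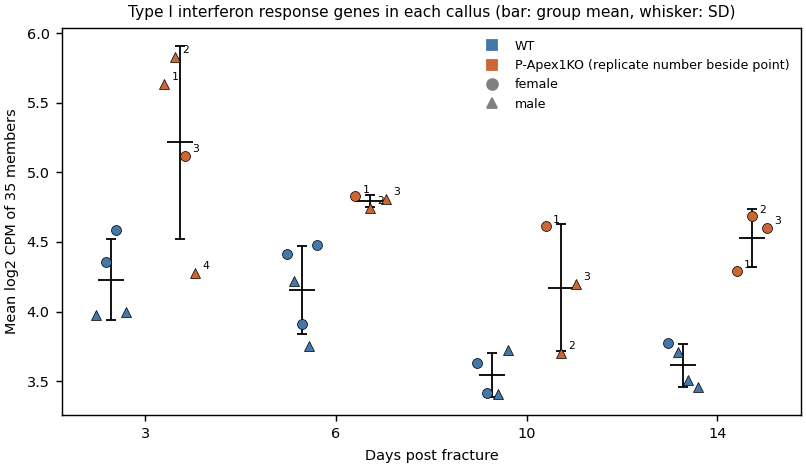
Mean log2 CPM of the 35 members in each of the 30 calluses against days post fracture, WT in blue and P-Apex1KO in orange, circles female and triangles male, with the group mean (bar) and SD (whisker). Replicate 4 of the libraries labelled P-Apex1KO at 3-dpf (4.28) and P-Apex1KO replicate 2 at 10-dpf (3.70) lie within the WT range of their day, and the P-Apex1KO calluses of 6- and 14-dpf lie above all WT calluses of the same day.

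The calluses of a group did not move equally. The mean log2 CPM over the 35 genes was 5.64, 5.83, 5.12 and 4.28 in the libraries labelled P-Apex1KO at 3-dpf and 3.98, 4.35, 4.59 and 4.00 in WT, so 3 libraries lay above the WT range and replicate 4 inside it. At 6-dpf the P-Apex1KO values were 4.83, 4.75 and 4.81 and the WT values 4.42, 4.22, 3.91, 3.75 and 4.48, with no overlap. At 10-dpf they were 4.61, 3.70 and 4.201 against 3.63, 3.41, 3.41 and 3.72, with replicate 2 inside the WT range. At 14-dpf they were 4.29, 4.68 and 4.60 against 3.77, 3.71, 3.51 and 3.46, again with no overlap. Counted gene by gene, 33, 35 and 32 of the 35 members exceeded the highest WT value in replicates 1 to 3 at 3-dpf, and 4 did so in replicate 4, against 21.4% to 29.8% of all genes. At 10-dpf the counts were 34, 11 and 33 members, against 25.1% to 27.5% of all genes.

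**Figure D3:**
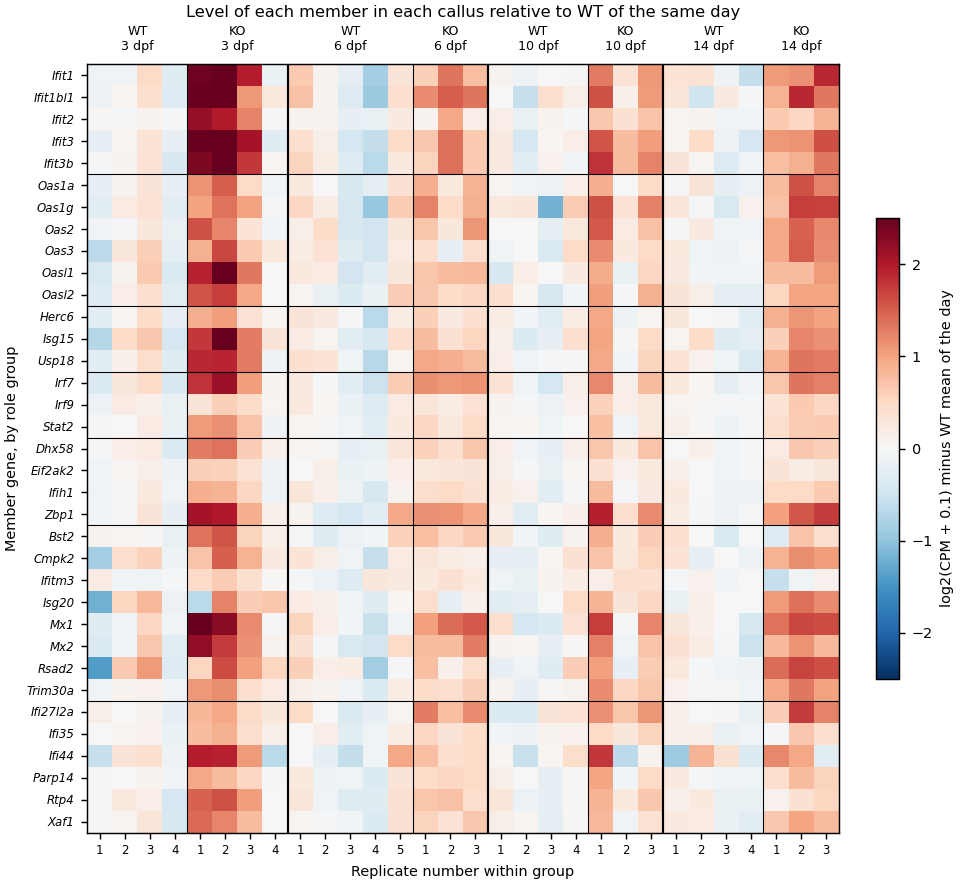
Level of each of the 35 members (rows, by role group) in each of the 30 calluses (columns, by group and replicate number), as log2(CPM + 0.1) minus the WT mean of the same day, with colours limited to ±2.5. Replicates 1 to 3 of the libraries labelled P-Apex1KO at 3-dpf and P-Apex1KO replicate 1 at 10-dpf are the deepest red columns of their days, and replicate 4 of the former and P-Apex1KO replicate 2 at 10-dpf are pale.

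At 3-dpf, 0 of 35 members passed edgeR's quasi-likelihood test over all genes, which called 0 of 19866 genes, while 32 members had an unadjusted p under 0.05, against 6.12% of all genes. DESeq2's Wald test with the same model called 8 members, 8 of the 82 genes (0.413%) that it called higher, with adjusted p from 0.00693 for *Ifit3b* to 0.0481 for *Oasl2*. When all 30 samples shared 1 model, 16 members passed, among 37 genes called higher (0.179%). Without replicate 4 of the libraries labelled P-Apex1KO, 2 members passed in the 3-dpf fit, *Ifit3* (log2 fold change 2.54 ± 0.23, adjusted p = 0.0415) and *Ifit2* (1.77 ± 0.19, adjusted p = 0.049), where 0.0504% of all genes were called higher. In the model of all samples without that library, an alternative chosen after seeing the data, 26 members passed, among 120 genes called higher (0.584%). All libraries labelled P-Apex1KO lay above all WT libraries for 4 members (*Ifi27l2a*, *Ifi35*, *Trim30a* and *Bst2*), against 1.97% of all genes, and replicates 1 to 3 did for 32 members, against 5.62%. Because replicate 4 had the lowest member level of these libraries, the counts without it follow in part from leaving it out. The summed level of 10 skeletal muscle markers was 13800, 9210, 10200 and 5840 CPM in replicates 1 to 4 and 4007 to 5725 CPM in WT, so all 4 lay above WT and replicate 4 by the least. The part of muscle tissue in the interferon result was not tested.

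At 6-dpf all 3 P-Apex1KO calluses lay above all 5 WT calluses for 16 members, against 8.71% of all genes. The 17 calls became 8, 10 and 3 without WT replicates 2, 3 and 4, and 4, 11 and 6 without P-Apex1KO replicates 1, 2 and 3. At 10-dpf the groups did not overlap for 10 members, against 8.78% of all genes, and the 10 calls became 0, 1, 6 and 21 without WT replicates 1 to 4 and 0, 21 and 2 without P-Apex1KO replicates 1 to 3. The summed level of the skeletal muscle markers there was 8338, 3735 and 7316 CPM in P-Apex1KO and 1314 to 4164 CPM in WT, with replicate 2 in the WT range. At 14-dpf the groups did not overlap for 30 members, against 18.5% of all genes, and without the sex term 30 members passed, against 18.8% of all genes as higher. The 10 calls became 5, 4 and 5 without WT replicates 2, 3 and 4 and 20 without P-Apex1KO replicate 1. With 1 mouse left out, the share of all genes called higher ran from 1.71% to 5.99% at 6-dpf, from 0.113% to 5.38% at 10-dpf and from 2.0% to 8.32% at 14-dpf. All 3 P-Apex1KO females exceeded the WT female for 31 of the 35 members, against 31.0% of all genes. Across the 3 later days, *Zbp1* and *Trim30a* passed on each, 5 members passed on 2 days, 21 on 1 day, and 7 on none. The matching share of all genes over these days is not given here, so these counts only describe the members.

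**Figure D4:**
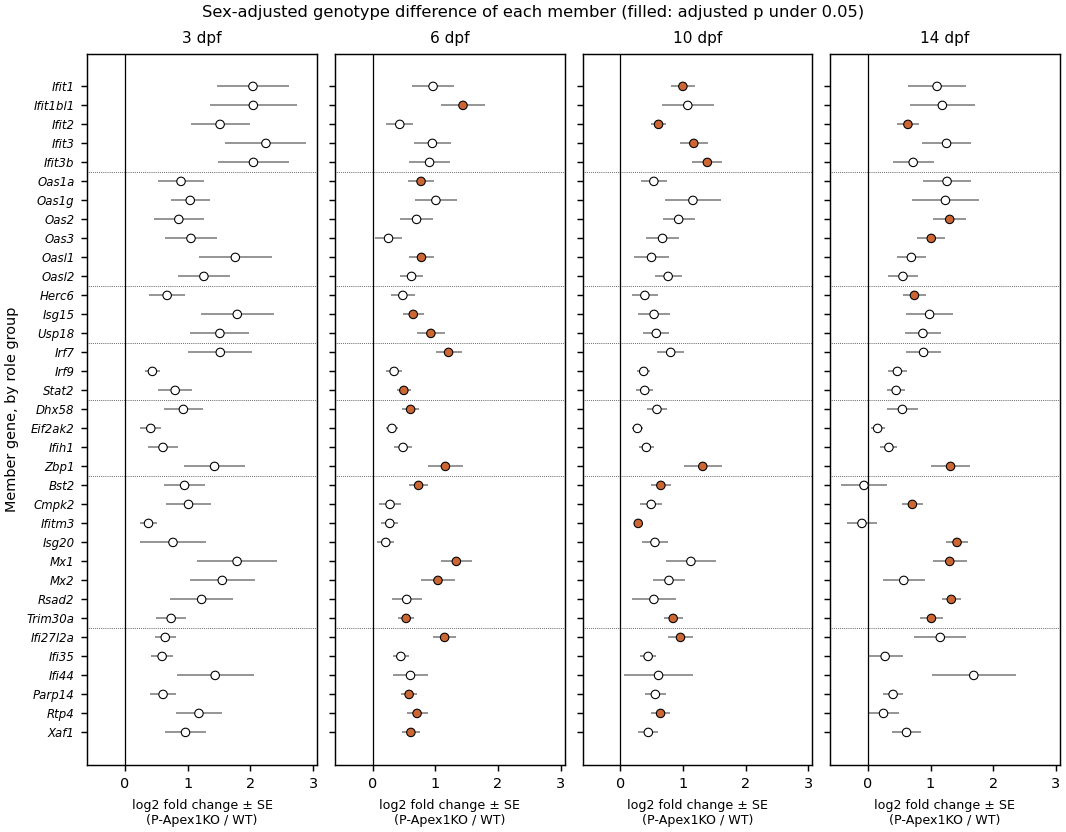
Log2 fold change (P-Apex1KO over WT, adjusted for sex) of each member at 3-, 6-, 10- and 14-dpf, with its SE as a horizontal line; filled points passed at adjusted p below 0.05. The fold change is highest at 3-dpf for 25 members and at 14-dpf for 10, with 0 points filled at 3-dpf, and 17, 10 and 10 are filled at 6-, 10- and 14-dpf.

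The IFIT genes encode antiviral proteins, some of which bind viral RNA lacking a self cap and block its translation. These genes had the largest fold changes of any role group at 3-dpf, with a group median of 2.05 on the log2 scale. *Ifit1* had 70.8, 75.8, 51.4 and 11.7 CPM in the libraries labelled P-Apex1KO at 3-dpf and 12.2, 12.2, 18.6 and 10.6 CPM in WT. The first 3 libraries held several times the WT level and replicate 4 lay within the WT range, and the difference did not pass (4.11-fold, log2 2.04 ± 0.58, adjusted p = 0.768). At 10-dpf *Ifit1* had 24.6, 12.8 and 21.4 CPM against 10.6, 9.13, 10.0 and 10.1 CPM, without overlap (2.00-fold, adjusted p = 0.0283). *Ifit3* had 64.8, 62.2, 40.5 and 7.63 CPM at 3-dpf against 8.23, 9.90, 12.1 and 8.19 CPM, so that replicates 1 to 3 lay above all WT libraries and replicate 4 below them. At 10-dpf it had 23.9, 13.8 and 16.7 CPM against 9.44, 5.84, 8.32 and 8.96 CPM, without overlap (2.26-fold, adjusted p = 0.0263). *Ifit3b* had 20.6, 26.4, 13.9 and 4.17 CPM at 3-dpf against 3.87, 4.23, 5.15 and 3.00 CPM, where replicate 4 lay in the WT range.

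At 10-dpf *Ifit3b* had the smallest p of the 35 members (2.62-fold, log2 1.39 ± 0.24, adjusted p = 0.0187), with 8.79, 4.31 and 5.85 CPM against 2.86, 2.01, 2.62 and 2.33 CPM. *Ifit2* had 33.1, 27.0 and 33.9 CPM at 10-dpf against 23.0, 18.04, 21.97 and 19.8 CPM, a smaller but non-overlapping difference (1.53-fold, adjusted p = 0.0281). It passed at 14-dpf too (1.56-fold, adjusted p = 0.049). *Ifit1bl1*, a paralog of *Ifit1*, passed at 6-dpf (2.72-fold, adjusted p = 0.032). In all, 1 of 5 IFIT genes passed at 6-dpf, 4 of 5 at 10-dpf and 1 of 5 at 14-dpf. *Ifit3* and *Ifit3b* shared 46.9% and 48.0% of the 50-base windows of their canonical transcripts with transcripts of other genes, mostly each other, so how reads divide between them is uncertain.

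**Figure D5:**
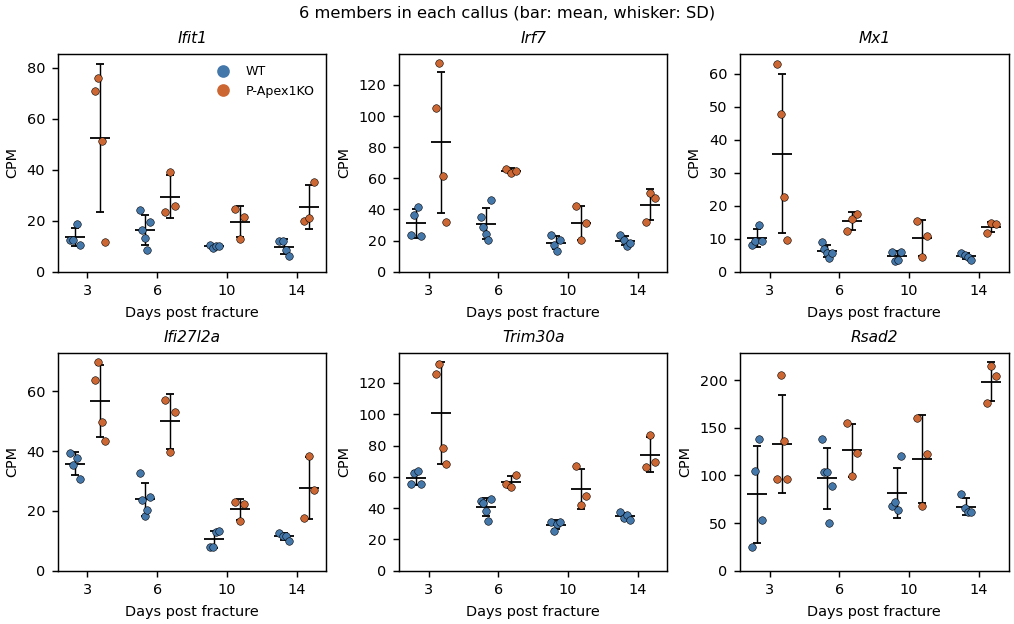
CPM of 6 members in each callus against days post fracture, WT in blue and P-Apex1KO in orange, with the group mean (bar) and SD (whisker). The 3 highest values of *Ifit1* and of *Mx1* belong to libraries labelled P-Apex1KO at 3-dpf, and the 4 highest values of *Rsad2* belong to 1 such library of 3-dpf (205.5 CPM) and the 3 P-Apex1KO calluses of 14-dpf.

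Most OAS proteins make the oligoadenylates that activate the antiviral ribonuclease RNase L. The median of the OAS family was highest at 14-dpf, at 1.12 on the log2 scale, where 2 of 6 passed. *Oas2* had 15.7, 22.5 and 18.4 CPM in P-Apex1KO at 14-dpf and 7.78, 9.42, 7.42 and 7.56 CPM in WT (2.47-fold, log2 1.31 ± 0.27, adjusted p = 0.0201). *Oas3* had 41.1, 60.9 and 48.2 CPM against 25.3, 19.7, 19.5 and 20.9 CPM (2.02-fold, adjusted p = 0.028). Neither overlapped between the groups. At 6-dpf *Oas1a* (1.71-fold, adjusted p = 0.0412) and *Oasl1* (1.72-fold, adjusted p = 0.0407) passed. At 10-dpf 0 of 6 did, though 5 had an unadjusted p under 0.05, as did 4588 of the 18910 genes tested. *Oas1g* was among the 6 members of smallest p at 3-dpf, with 4.76, 6.08, 4.73 and 2.26 CPM against 1.89, 2.66, 3.01 and 1.88 CPM (2.06-fold, adjusted p = 0.768), and replicate 4 lay in the WT range. *Oas1a* and *Oas1g* shared 56.8% and 55.4% of their windows with other transcripts, so their counts are uncertain in the same way. *Oasl2* and *Oas1g* passed at no time point.

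The ISG15 system attaches the ubiquitin-like protein ISG15 to other proteins, with HERC6 as the ligase of the mouse and USP18 as the protease that removes it and also damps the receptor. *Isg15* had 39.4, 65.6, 28.3 and 14.4 CPM in the libraries labelled P-Apex1KO at 3-dpf and 7.05, 16.0, 18.5 and 8.61 CPM in WT (3.46-fold, adjusted p = 0.768). Replicates 1 to 3 were above the WT range there and replicate 4 was within it. At 6-dpf it had 32.8, 24.9 and 27.7 CPM against 22.1, 19.97, 15.7, 14.4 and 25.6 CPM, with 1 WT callus above the lowest P-Apex1KO callus, and it passed (1.57-fold, adjusted p = 0.036). *Usp18* passed at 6-dpf (1.90-fold, adjusted p = 0.03) and *Herc6* at 14-dpf (1.67-fold, adjusted p = 0.0343). Part of the *Herc6* transcript, 19.6% of its windows, is shared with an overlapping predicted gene.

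The 3 transcription factors of the list pass the signal on, STAT2 and IRF9 as parts of ISGF3 and IRF7 as the factor that amplifies interferon production. *Irf7* had 66.2, 63.2 and 65.0 CPM in P-Apex1KO at 6-dpf and 34.8, 28.8, 24.3, 20.4 and 46.2 CPM in WT, and the groups did not overlap (2.32-fold, log2 1.21 ± 0.21, adjusted p = 0.00838). *Stat2* had 62.2, 51.7 and 61.1 CPM on that day against 45.4, 44.1, 40.5, 35.99 and 51.2 CPM, a difference that passed with a gap of less than 1 CPM between the groups (1.41-fold, adjusted p = 0.0205). *Irf9* had 56.8, 67.9, 62.6 and 47.5 CPM in the libraries labelled P-Apex1KO at 3-dpf and 40.6, 52.3, 49.7 and 39.6 CPM in WT (1.35-fold, adjusted p = 0.768), and it passed on no day. At 10- and 14-dpf 0 of the 3 passed, with group medians of 0.39 and 0.47 on the log2 scale.

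Among the sensors, *Zbp1*, which encodes a receptor of left-handed nucleic acid helices that can start necroptosis, passed on each of the 3 later days. Its levels were 26.6, 26.4 and 23.3 CPM in P-Apex1KO at 6-dpf against 12.8, 9.59, 8.87, 9.80 and 23.4 CPM in WT (2.24-fold, adjusted p = 0.0301), where WT replicate 5 reached the P-Apex1KO level. At 10-dpf they were 19.4, 6.67 and 11.5 CPM against 5.45, 4.06, 5.16 and 5.42 CPM (2.49-fold, adjusted p = 0.0475), without overlap. At 14-dpf they were 11.3, 16.4 and 18.7 CPM against 6.32, 5.38, 5.05 and 5.42 CPM (2.5-fold, adjusted p = 0.0327), again without overlap. *Dhx58*, which encodes the RIG-I-like receptor LGP2, passed at 6-dpf (1.52-fold, adjusted p = 0.0256). *Ifih1*, which encodes the RNA sensor MDA5, and *Eif2ak2*, which encodes the kinase PKR, passed on no day, with log2 fold changes from 0.16 to 0.61.

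The antiviral effectors included the dynamin-like GTPases *Mx1* and *Mx2* and the radical enzyme viperin (*Rsad2*) with its neighbour *Cmpk2*. *Mx1* had 12.4, 16.0 and 17.6 CPM in P-Apex1KO at 6-dpf and 8.87, 6.797, 5.70, 4.08 and 5.62 CPM in WT (2.52-fold, adjusted p = 0.0107). It had 11.8, 14.7 and 14.3 CPM at 14-dpf and 5.59, 4.96, 4.50 and 3.45 CPM in WT (2.47-fold, adjusted p = 0.0219). The groups overlapped on neither day. *Mx2* passed at 6-dpf (2.06-fold, adjusted p = 0.0414).

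*Rsad2* had the smallest p of all members at 14-dpf, with 176, 215 and 204 CPM in P-Apex1KO and 80.3, 65.7, 61.9 and 61.7 CPM in WT (2.52-fold, log2 1.33 ± 0.15, adjusted p = 0.00233). On the earlier days its groups overlapped, and at 3-dpf WT alone ran from 25.1 to 138 CPM. *Isg20*, an exonuclease gene, had 34.3, 42.9 and 37.2 CPM at 14-dpf against 14.5, 18.3, 16.5 and 16.6 CPM (2.68-fold, log2 1.42 ± 0.18, adjusted p = 0.00349), and at 6-dpf 55.3, 35.5 and 44.4 CPM against 47.1, 44.4, 38.4, 33.3 and 42.5 CPM, where the groups overlapped and it did not pass. *Cmpk2*, which encodes a mitochondrial nucleotide kinase, passed at 14-dpf (1.64-fold, adjusted p = 0.0365).

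*Trim30a*, a TRIM protein gene of mice, passed at 6-, 10- and 14-dpf. At 10-dpf it had 67.0, 42.2 and 47.6 CPM in P-Apex1KO and 31.3, 25.5, 29.8 and 31.4 CPM in WT (1.80-fold, adjusted p = 0.0227). At 14-dpf it had 66.5, 86.8 and 69.4 CPM against 37.5, 33.6, 35.5 and 32.2 CPM (2.02-fold, adjusted p = 0.0127), so the groups were apart on both days. *Bst2*, which encodes the tethering factor tetherin, had 40.1, 34.1 and 37.6 CPM at 6-dpf against 23.1, 19.1, 21.4, 22.4 and 35.3 CPM (1.66-fold, adjusted p = 0.019), where WT replicate 5 lay far above the other WT calluses. It passed at 10-dpf (1.57-fold, adjusted p = 0.046) and at 14-dpf had 10.5, 21.9 and 17.6 CPM against 17.7, 13.2, 10.1 and 13.2 CPM. *Ifitm3*, a membrane protein gene that blocks virus entry, had the highest level per kb of exon of the 35 members in WT, 107 CPM per kb against 18.8 for the next. It passed at 10-dpf with the smallest called difference (1.22-fold, adjusted p = 0.0441).

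Among the other response genes, *Ifi27l2a* had the smallest p of the 35 members at both 3- and 6-dpf. At 3-dpf it had 63.7, 69.6, 49.9 and 43.4 CPM in the libraries labelled P-Apex1KO and 39.5, 35.2, 37.8 and 30.6 CPM in WT, without overlap and without passing (1.56-fold, adjusted p = 0.768). At 6-dpf it had 57.1, 39.6 and 53.2 CPM against 32.7, 23.7, 18.4, 20.2 and 24.5 CPM (2.22-fold, log2 1.15 ± 0.18, adjusted p = 0.00515). At 10-dpf it had 22.9, 16.6 and 22.3 CPM against 8.09, 8.08, 12.8 and 13.2 CPM (1.95-fold, adjusted p = 0.0321). It encodes a small protein of the mitochondrial and nuclear membranes.

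*Parp14*, which encodes an ADP-ribosyltransferase, had 98.1, 99.7 and 97.7 CPM at 6-dpf against 83.2, 64.0, 64.8, 55.0 and 88.0 CPM (1.5-fold, adjusted p = 0.0222), a difference without overlap. *Ifi35* had 27.2, 29.4, 21.5 and 17.7 CPM at 3-dpf in the libraries labelled P-Apex1KO and 15.8, 16.7, 17.0 and 14.2 CPM in WT (1.51-fold, adjusted p = 0.768), so its groups were apart although it passed on no day. *Rtp4*, which encodes a chaperone of receptors, passed at 6-dpf (1.64-fold, adjusted p = 0.0275) and 10-dpf (1.56-fold, adjusted p = 0.0482). *Xaf1*, a gene linked to apoptosis, passed at 6-dpf (1.53-fold, adjusted p = 0.0297). *Ifi44* passed on no day, with log2 fold changes from 0.61 to 1.69 and SEs up to 0.67.

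Whether the genotype difference changed between neighbouring days was tested in models of 2 time points. The tissue taken is described differently for 3- and 6-dpf, so time and dissection cannot be told apart in any change between those days. Between 3- and 6-dpf, 34 of 35 members had a smaller difference at 6-dpf, with a median change of -0.37 on the log2 scale. In edgeR's quasi-likelihood test 0 members passed, whereas 1.3% of all genes did. An unadjusted p under 0.05 was found for 0 members and for 2556 of the 20468 genes tested. DESeq2 also called 0 members. The 4 smallest p values were those of *Ifit2* (change -1.08 ± 0.51, adjusted p = 0.406), *Isg15* (-1.06 ± 0.55, adjusted p = 0.476), *Ifit3* (-1.26 ± 0.70, adjusted p = 0.514) and *Ifit3b* (-1.11 ± 0.63, adjusted p = 0.527). In the model of all samples without 3-dpf replicate 4 of the libraries labelled P-Apex1KO, *Ifit2* (adjusted p = 0.00291), *Ifit3* (0.0212) and *Ifit3b* (0.0453) passed, against 2.14% of all genes. That model was chosen after seeing the data and leaves out the library with the lowest member level of its group.

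Between 10- and 14-dpf 0 members passed, where 0.436% of all genes did. An unadjusted p under 0.05 was found for 2 of 35 members and for 2577 of the 19705 genes tested. DESeq2 called 0 members there as well. The effectors *Isg20* (change 0.80 ± 0.27, adjusted p = 0.231), *Rsad2* (0.92 ± 0.41, adjusted p = 0.37) and *Cmpk2* (0.49 ± 0.26, adjusted p = 0.45) had larger differences at 14-dpf, and *Bst2* had a smaller one (-0.61 ± 0.34, adjusted p = 0.474). At 10-dpf *Isg20* had 43.8, 30.1 and 34.5 CPM in P-Apex1KO and 19.9, 20.6, 24.5 and 33.8 CPM in WT, and *Rsad2* had 161, 68.2 and 123 CPM against 68.0, 72.5, 64.0 and 120 CPM. WT replicate 4 lay above P-Apex1KO replicate 2 for both genes on that day, as WT replicate 2 did for *Rsad2*, and no WT callus overlapped the P-Apex1KO calluses at 14-dpf. Without P-Apex1KO replicate 1 of 10-dpf *Isg20* passed (adjusted p = 0.0288). For *Cmpk2* the values were 31.3, 22.9 and 27.5 CPM against 16.5, 16.4, 19.6 and 24.9 CPM at 10-dpf, and 31.9, 39.4 and 36.1 CPM against 22.3, 15.1, 17.3 and 15.9 CPM at 14-dpf.

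Within WT, 4 members fell from 3- to 6-dpf (*Ifitm3*, *Trim30a*, *Ifi27l2a* and *Parp14*, log2 changes from -0.63 to -0.46), where 15.1% of all genes fell. Within P-Apex1KO, *Ifitm3* (log2 change -0.55, adjusted p = 0.022) and *Trim30a* (-0.83, adjusted p = 0.0158) fell, where 6.91% of all genes did. Without 3-dpf replicate 4, whose mean level lay in the WT range, 18 members fell within the libraries labelled P-Apex1KO, where 6.39% of all genes did. From 10- to 14-dpf in WT, *Isg20* fell (log2 change -0.63, adjusted p = 0.026) and *Rtp4* rose (0.54, adjusted p = 0.0382), where 11.1% of all genes changed. In P-Apex1KO 0 members passed between those days in edgeR or DESeq2, where 0.259% of all genes passed in edgeR. There 1 of 35 members had an unadjusted p under 0.05, as did 2811 of the 19705 genes tested. Levels at 6- and 10-dpf were not compared, because the sample names change form between those days and a batch cannot be told apart from time.

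The order of the members by fold change was more alike among 3-, 6- and 10-dpf than between those days and 14-dpf. As a description over 35 genes, which are not independent of each other, Spearman's rho between the log2 fold changes was 0.64 for 3- and 6-dpf, 0.64 for 3- and 10-dpf, 0.72 for 6- and 10-dpf, and 0.43, 0.36 and 0.53 for 14-dpf with 3-, 6- and 10-dpf. The time points share no mice. Members with an ISRE core in the promoter window had a median log2 fold change of 1.05, 0.71, 0.65 and 1.01 at 3-, 6-, 10- and 14-dpf, and those without one 0.99, 0.59, 0.56 and 0.67. Of the 19 with a core 10, 7 and 5 passed at 6-, 10- and 14-dpf, and of the 16 without one 7, 3 and 5 did.

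The interferons themselves were near the limit of detection. *Ifnb1*, the gene of interferon beta, had reads in 2 of 30 calluses, at most 0.031 CPM, 1 in WT and 1 in P-Apex1KO at 3-dpf, and *Ifna1*, *Ifna5*, *Ifna11* and *Ifna16* had none. *Ifng*, the gene of interferon gamma, had reads in 23 of 30 and at most 0.67 CPM, and where tested it did not pass (3.53-fold at 6-dpf, log2 1.82 ± 0.97, adjusted p = 0.278, and 3.62-fold at 14-dpf, adjusted p = 0.408). The receptor genes were abundant and close between genotypes. *Ifnar1* had 150 ± 16 CPM in WT and 152 ± 13 CPM in the libraries labelled P-Apex1KO at 3-dpf (SD, n = 4 each), and its log2 fold changes lay between -0.15 and 0.07 without passing on any day. *Ifnar2* ran from 0.02 to 0.19 on the log2 scale, again without passing. Of the list of 20 ligands and receptors, 7 could be tested at 6-dpf, where *Il10rb*, *Ifngr1* and *Ifngr2*, receptor chains of interferon lambda and gamma, passed as higher (1.29-, 1.26- and 1.28-fold), and at 14-dpf *Ifngr2* passed as lower (0.758-fold, adjusted p = 0.0425).

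Downstream of the receptor, 4 of 16 signal transducers and regulators passed as higher at 6-dpf, 3 at 10-dpf and 0 at 3- and 14-dpf. *Irf5* (1.67-fold, adjusted p = 0.0146) and *Irf8* (1.59-fold, adjusted p = 0.0203), factors of myeloid cells, and *Irf2* (1.29-fold, adjusted p = 0.0305) passed at 6-dpf. *Irf3*, the constitutive factor that starts interferon transcription, lay between -0.08 and 0.08 on the log2 scale and *Irf1* between -0.06 and 0.42, and neither passed on any day. Of 20 nucleic acid sensors and adaptors tested, 5, 4 and 3 passed as higher at 6-, 10- and 14-dpf and 1 as lower at 14-dpf. The endosomal receptors *Tlr7*, *Tlr8* and *Tlr9*, used by myeloid cells and B cells to detect RNA and DNA, were among them at 6-dpf, with *Tlr9* at 24.0 ± 2.9 CPM in P-Apex1KO (SD, n = 3) and 12.8 ± 2.2 CPM in WT (SD, n = 5), a 2.00-fold difference (adjusted p = 0.00315). *Rigi*, the gene of the sensor RIG-I, passed at 10-dpf (1.32-fold, adjusted p = 0.026).

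Other interferon-stimulated genes had smaller medians on each day. Of 68 other interferon-stimulated genes, 0, 28, 14 and 18 passed as higher at 3-, 6-, 10- and 14-dpf, and 2 as lower at 14-dpf, with medians of 0.54, 0.47, 0.50 and 0.59 on the log2 scale. *Ifi205* (2.82-fold, adjusted p = 0.00109), *Phf11b* (2.68-fold, adjusted p = 0.00258), *Ly6a* (2.08-fold, adjusted p = 0.00199) and *Epsti1* (1.93-fold, adjusted p = 0.00278) had the smallest p values, all at 6-dpf. Of the interferon gamma response genes, 28 or 29 were tested, and 0, 6, 6 and 8 passed as higher. They were led by the class II antigen presentation genes *H2-Aa*, *H2-Eb1*, *Cd74* and *H2-Ab1*, which were 2.09- to 2.55-fold higher at 6-dpf. At 3-dpf 24 of the 29 had a fold change above 0, with a median of 0.54 on the log2 scale, while these 4 genes lay below WT (log2 fold changes from -0.26 to -0.19, not passing), and their change from 3- to 6-dpf passed (for *H2-Aa* 1.62 ± 0.22, adjusted p = 0.00277).

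Among the immune cell lists, those of macrophages and monocytes and of T and NK cells had markers called higher on each of the later days. Of 14 macrophage and monocyte markers, 9, 7 and 10 passed as higher at 6-, 10- and 14-dpf and 2 as lower at 14-dpf. Their summed level was 3209 to 3741 CPM in P-Apex1KO and 1896 to 2455 CPM in WT at 6-dpf, 2252 to 2692 against 1213 to 2043 CPM at 10-dpf, and 2585 to 3000 against 1996 to 2096 CPM at 14-dpf, without overlap on any of these days. At 3-dpf 0 of 14 passed, with a median log2 fold change of 0.17, and the summed levels overlapped (4118 to 5736 CPM against 3942 to 4903 CPM). Of 12 T and NK cell markers, 8, 3 and 1 passed as higher at 6-, 10- and 14-dpf, at summed levels of no more than 122 CPM. Of 12 neutrophil markers, 0 passed at 6- and 10-dpf and 9 passed as higher at 14-dpf. Their summed levels overlapped at 6-dpf but not later. They were 2893 to 5439 CPM in P-Apex1KO against 1345 to 2892 CPM in WT at 10-dpf, and 2899 to 3731 against 1388 to 2126 CPM at 14-dpf. Of 10 markers of plasmacytoid dendritic cells, the main producers of interferon alpha in blood, 2 passed as higher at 6-dpf and 1 as lower at 10-dpf. At 14-dpf 1 of them passed as higher and 2 as lower. Their summed levels were 107.7 to 253.5 CPM in P-Apex1KO against 75.4 to 86.87 CPM in WT on that day, and overlapped at 6- and 10-dpf. Of 9 B lineage markers, 3 passed as higher at 6-dpf and 0 passed at 10- and 14-dpf. At 14-dpf all 9 had a fold change above 0 (median log2 1.956), and they summed to 359.1 to 901.4 CPM against 253.3 to 306.2 CPM in WT. Their summed levels overlapped at 6- and 10-dpf. Of 10 erythroid markers, 0 passed at 6- and 10-dpf and 8 passed as higher at 14-dpf. No marker of any cell type list, chondrocytes and osteoblasts included, was at 0 in a whole group, which alone does not show that a cell type was present. At 3-dpf the chondrocyte markers summed to 611 to 677 CPM in WT and 208 to 824 CPM in the libraries labelled P-Apex1KO. Of 10 chondrocyte markers, 10 passed as lower at 6-dpf, and 9 as higher and 1 as lower at 14-dpf. Their summed level was 3001 to 5493 CPM in P-Apex1KO and 33980 to 60820 CPM in WT at 6-dpf. At 14-dpf it overlapped, at 5503 to 6684 CPM against 3114 to 8199 CPM, and the lowest value was that of the WT female. Of 10 osteoblast markers, 9, 6 and 6 passed as lower at 6-, 10- and 14-dpf. Skeletal muscle markers passed as higher for 9 of 10 at 6-dpf, with a median log2 fold change of 1.46, at 8463 to 19730 CPM against 3581 to 6582 CPM in WT. At 14-dpf they summed to 3697 to 13360 CPM against 1481 to 5370 CPM. The part of cell composition in the higher interferon genes was not tested.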

How the data were processed

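The authors extracted RNA from ground callus, prepared stranded total RNA libraries with ribosomal depletion, aligned reads to mm39 with STAR 2.7.0d and counted reads per gene with featureCounts (submitters' processing notes, which also name bcl2fastq 2.20 and DESeq2 1.32.0). The deposited values are raw read counts per gene, without normalization. The table holds 55416 gene IDs, of which 54749 matched GENCODE M39.

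Each time point was fitted with edgeR 4.0.16 in R 4.3.3 (filterByExpr, TMM, genotype and sex, robust quasi-likelihood F test), with Benjamini-Hochberg adjustment over all genes tested and a threshold of 0.05. Models of 4 groups tested the change between neighbouring days. Errors of log2 fold changes are SE, taken as the absolute log2 fold change divided by the root of the F statistic. CPM values were scaled by TMM over all 30 samples, and mean log2 CPM used a prior count of 2. Libraries held 18334389 counts or more, so most members rest on many reads, but *Oas1g* and *Ifit1bl1* fell to 0.311 and 0.502 CPM in single WT libraries of 10-dpf, where counting error adds to the spread between 3 to 5 mice. Promoters came from GRCm39. The fits were tested on simulated data.

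The members and lists were chosen with earlier results of these data known. Values in each sample are given for the 6 members of smallest p on each day and the 4 of smallest p in each interaction. *Zbp1*, which passed on 3 days, was added after its values were seen. Pathway lists name *Ifnb1*, *Ifnar1*, *Ifnar2*, *Irf3*, *Irf1* and up to 4 genes of smallest p. *Ifng* was added likewise, and 1 gene that the rule names is not reported here. Alternatives were DESeq2 1.42.0 (Wald test), scaling by library size alone or by the size factors of DESeq2, a fit that leaves out sex, no filter or a minimum of 10 counts per sample, the replicate number as a block, each mouse left out, and all samples in 1 model. All samples without replicate 4 of the libraries labelled P-Apex1KO at 3-dpf in 1 model was added after seeing the data.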

Additional observations from a re-analysis of the deposited data

Results flagged for a closer look

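In 3 of 105 sets of samples, the members named above and their mean level in each group of 4 or 5 mice, 1 sample stood apart from the others of its group by Dixon's criterion at the 95% level. Chance gives about 1 such set in 20. *Bst2* in WT callus at 6-dpf was highest in replicate 5, at 35.26 CPM, with a gap to the next sample of 0.751 of the group's range. *Parp14* in WT callus at 14-dpf was highest in replicate 1, the WT female of that day, at 93.87 CPM, with a gap of 0.872 of the range. *Rsad2* in WT callus at 10-dpf was highest in replicate 4, at 120.1 CPM, with a gap of 0.849 of the range. In each case the sample was a WT callus that lay towards the P-Apex1KO calluses of its day. The P-Apex1KO groups of 6-, 10- and 14-dpf had 3 mice and were not among these sets, so mostly WT samples could be flagged.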

How the results depend on the processing

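The counts of members called depended on the mice and the model. At 3-dpf the 0 calls became 8 with DESeq2, 16 with all samples in 1 model and 26 in that model without replicate 4 of the libraries labelled P-Apex1KO, and ranged from 0 to 2 when 1 mouse was left out. At 6-dpf the 17 calls became 27 with library size alone and 10 with all samples in 1 model, and 3 to 19 without 1 mouse. At 10-dpf the 10 calls became 17 with DESeq2, 6 without the sex term and 4 with all samples in 1 model, and 0 to 21 without 1 mouse. At 14-dpf the 10 calls became 16 with DESeq2, 30 without the sex term and 21 with library size alone, and 4 to 20 without 1 mouse. The fit without the WT female of 14-dpf could not be made. From 3- to 6-dpf the 4 members that fell in WT became 10 with library size alone and 2 with no filter (1 to 4 without 1 mouse). With library size alone, 6984 of all 20468 genes tested fell in WT between those days. Over all genes, 1768 of 20453 fell in P-Apex1KO with DESeq2 and 1777 of 20642 with all samples in 1 model. The 2 members that fell in P-Apex1KO became 7 with DESeq2, 6 with all samples in 1 model and 20 in that model without replicate 4 (0 to 18). The interaction went from 0 to 3 in that last model (0 to 1). From 10- to 14-dpf the 2 changes in WT became 1 without the sex term, 1 with library size alone and 0 with all samples in 1 model (0 to 3). The interaction gave 0 to 1, and the change in P-Apex1KO 0 to 0. The single call of that interaction was *Isg20*, without P-Apex1KO replicate 1 of 10-dpf. Counts over all genes are not given for each of these settings, so member counts without them only describe the members. The cause of these moves was not tested.

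Whether replicate numbers pair the samples was not tested, because same-numbered mice were not compared with different-numbered ones. Correlations of same-numbered mice ran from 0.062 to 0.392 at 3-dpf, from -0.089 to 0.078 at 6-dpf, from -0.180 to 0.184 at 10-dpf and from -0.251 to -0.079 at 14-dpf. With the replicate block in place of sex, 7 members passed at 6-dpf and 21 at 14-dpf, 4 fell in P-Apex1KO from 3- to 6-dpf, and 1 changed in WT from 10- to 14-dpf. Library size alone moved the median of all genes to 0.20 at 6-dpf and 0.31 at 14-dpf, to 0.251 and 0.159 in the interactions and to -0.272 for the change in WT from 3- to 6-dpf. It also moved the split of genes higher and lower in P-Apex1KO from 1075 and 1137 to 2780 and 814 at 6-dpf, from 570 and 651 to 849 and 464 at 10-dpf, and from 865 and 1424 to 1878 and 766 at 14-dpf, while the members called stayed higher. Over all genes, the 0 calls at 3-dpf became 85 with DESeq2 and 38 with all samples in 1 model. The 2212 calls at 6-dpf became 3594 with library size alone and 677 with the replicate block. The 1221 at 10-dpf became 2187 with DESeq2 and 750 without the sex term, and the 2289 at 14-dpf became 6849 without the sex term and 6188 with all samples in 1 model. The 267 genes of the earlier interaction became 718 with DESeq2 and 90 with the block, and the 86 of the later one 465 with DESeq2 and 8 with library size alone. The 51 genes that changed in P-Apex1KO from 10- to 14-dpf became 550 with DESeq2, 672 without the sex term and 656 with the block. Of the fold changes of single named members, 507 values kept direction and call, 41 lost and 12 gained a call. With 3 to 5 mice per group, a p above the threshold does not show equal levels.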
